A study of Mus musculus with 6 samples.

Results

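The step from 2.5 h to 4 h after human chorionic gonadotropin (hCG) was followed in ovarian granulosa cells that lacked the protein kinases ERK1 and ERK2. It was taken as the log2 intensity of the knockout array at 4 h minus that of the knockout array at 2.5 h, which are 2 of the 6 arrays of the study. A gene entered where the brighter of these arrays stood at an intensity of 64 or more, which left 11260 of 18193 genes. The mice were 23 days old. They were primed for 48 h with 5 IU of eCG, a gonadotropin from the mare, and then given 5 IU of hCG, or none for the arrays at 0 h. The knockout genotype was given as ERK1 knockout and ERK2 fl/fl;Cyp19CRE, and the other arrays came from wild type mice without a further label of strain or transgene. In the knockout, ERK1 was deleted by genotype and ERK2 by a Cre whose name points to the aromatase gene Cyp19, which is active in granulosa cells of growing follicles. The share of cells with ERK2 deleted was not given, and transcripts of the kinases themselves were not analysed here, which leaves the genotypes as labelled. Each genotype had 1 array at 0 h, 2.5 h and 4 h, and the number of animals behind an array was not given. No spread between replicates can be set beside a difference and no test was made. A gene was taken as moved where the arrays differed at least 2-fold.

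Granulosa cells surround the oocyte and make estradiol before ovulation. The surge of luteinizing hormone, which hCG imitates, acts on their receptor through cAMP and, by way of EGF-like ligands released in the follicle, through the RAS and ERK cascade. Genes answer this signal in waves, with immediate early and cAMP-responsive genes first, followed by genes of ovulation and matrix expansion and then by the genes of the corpus luteum. The comparison asks which transcripts were still moving between the early and the later sample when ERK1 and ERK2 were missing.

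Of the 11260 genes, 52 (0.462%) were at least 2-fold higher and 60 (0.533%) at least 2-fold lower at 4 h than at 2.5 h. The middle 90% of genes lay between -0.43 and 0.49 (log2), and the median was 0.04. Among the 52 higher genes the median difference was 2.29-fold and the largest 8.86-fold, and 4 genes exceeded 4-fold. For the 60 lower genes the median was 2.34-fold and the largest 3.76-fold, so no gene lay 4-fold lower. The same rule applied to the wild type arrays at 2.5 h and 4 h gave 184 higher (1.61%) and 219 lower genes (1.91%) of 11442. Bacterial and phage control transcripts are added in equal amounts to each hybridization. Across 18 probe sets they differed by -0.20 to 0.05 in the knockout step (median -0.09, SD 0.08). In the wild type step they differed by -0.05 to 0.21 (median 0.07). Centred on these controls, the knockout split became 75 higher and 40 lower genes, against 52 and 60 as deposited. Both arrays were at 64 or more for 41 of the higher and 51 of the lower genes, and for the other 11 and 9 a fold change rests on a value under the floor.

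**Figure D1:**
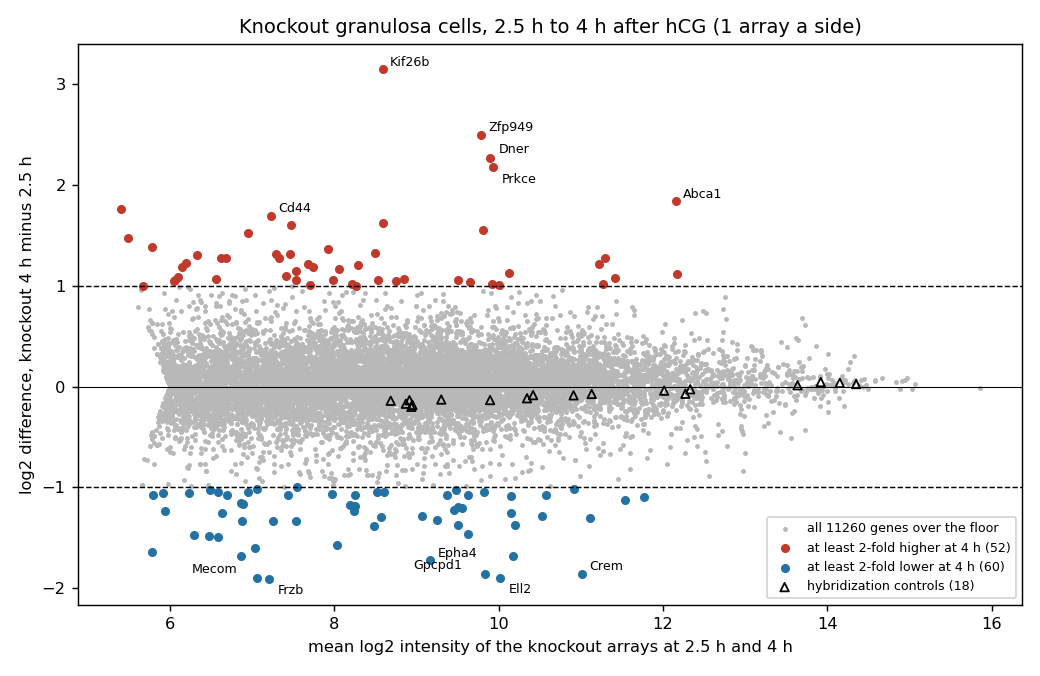
Each point is a gene, with the mean log2 intensity of the knockout arrays at 2.5 h and 4 h on the x axis and the log2 difference (4 h minus 2.5 h) on the y axis. Red and blue points are the 52 higher and 60 lower genes past the dashed 2-fold lines, and open triangles are the 18 hybridization controls, which lie between -0.20 and 0.05.

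The cells carried the markers of their label, and markers of several other cell types were over the floor too. All of 12 granulosa markers on the array were over the floor, and their knockout step had a median of -0.04 (log2, range -0.31 to 0.23). Cyp19a1, planned as a marker, was not among these 12. Of the markers of other cells, 0 of 8 neutrophil, 2 of 6 red blood cell and 3 of 10 lymphocyte genes were over the floor. Oocyte markers were over it for 20 of 22 genes, and 20 of 20 were lower at 4 h, by -0.35 to -0.03 (median -0.21). Of the genes over the floor in both genotypes, 43.1% were lower in knockout. In the wild type step 19 of the 20 oocyte markers were higher (median 0.12). The hybridization controls had medians of -0.09 in the knockout step and 0.07 in the wild type step, each on the same side of 0 as the oocyte markers. The summed intensity of the oocyte markers was 52438, 22055 and 19231 at 0 h, 2.5 h and 4 h in knockout. In wild type it was 28316, 17536 and 18958. Smooth muscle markers (6 of 10 over the floor) had a median of 0.27, stromal fibroblast markers (11 of 12) 0.21, surface epithelium markers (10 of 12) 0.18 and macrophage and leukocyte markers (14 of 17) 0.17. Endothelial markers (8 of 16) had 0.04 and theca markers (7 of 9) -0.03. No gene of any marker list reached 2-fold in the knockout step. In the wild type step 1 theca marker was at least 2-fold higher, and 1 theca, 1 endothelial and 2 granulosa markers were at least 2-fold lower. The part of such cells in the results below was not tested. In bulk cells like these, fewer cells of a type and less RNA per cell cannot be told apart. The 3' over 5' ratio of control probe sets, which rises as RNA breaks down, was 3.99 and 4.24 for Gapdh and 3.11 and 3.37 for Actb on the knockout arrays at 2.5 h and 4 h.

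The largest late rise was that of Kif26b, a kinesin-like protein. Its intensity in knockout was 36, 129 and 1143 at 0 h, 2.5 h and 4 h, against 37, 114 and 154 in wild type. The genotypes thus stood close to each other up to 2.5 h, and the knockout array at 4 h was 8.86-fold above that at 2.5 h where wild type was 1.35-fold above. Zfp949, a zinc finger protein, read 120, 371 and 2100 in knockout and 114, 63 and 58 in wild type. Its step was 5.66-fold by the representing probe set and 2.70 (log2) by its other one, and the wild type values after hCG were under the floor. Dner, a membrane protein that binds Notch receptors, read 65, 432 and 2079 in knockout, a step of 4.81-fold, and 43, 343 and 567 in wild type. A further probe set of Dner gave 2.39 (log2) against 2.27 by the main one.

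Several of the next largest rises were signalling and transport genes. Prkce, the epsilon isoform of protein kinase C, was at 569, 459 and 2076 in knockout and 641, 705 and 1236 in wild type. That is a 4.52-fold step in knockout and 1.75-fold in wild type. Abca1, which exports cholesterol from cells, stood at 2006, 2406 and 8611 in knockout and 2701, 4155 and 6846 in wild type. In knockout it was nearly level up to 2.5 h and then 3.58-fold higher, where wild type was already above 0 h at 2.5 h. Cd44, the hyaluronan receptor, read 56, 83 and 269 in knockout, a 3.24-fold step, and 87, 399 and 808 in wild type, a 2.02-fold step. Corin, a membrane protease that activates a natriuretic peptide, was at 129, 525 and 1537 in knockout and 137, 222 and 334 in wild type, so the knockout array was above wild type at both times after hCG. Mapk10, the kinase JNK3, read 170, 227 and 569 against 159, 142 and 139, a 2.51-fold step in knockout with a level series in wild type. Another probe set of Mapk10 over the floor gave 0.81 (log2).

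Other genes rose late in knockout and stayed far below wild type. Snap91, a clathrin assembly protein, was 3.04-fold higher at 4 h, at 67, 102 and 310 in knockout and 67, 413 and 1557 in wild type. Nrcam, a neuronal adhesion molecule, was 2.88-fold higher, at 36, 73 and 210 against 65, 286 and 836. Both were larger in wild type at every time after hCG. Sult1e1, the estrogen sulfotransferase, read 20, 23 and 78 in knockout and 20, 10513 and 18464 in wild type. Its knockout value at 4 h was the only one of the 3 over the floor, and wild type stood 237-fold above it. Nts (neurotensin), at 27, 66 and 160 in knockout against 26, 6710 and 10934, showed a 2.42-fold step from a low level, with wild type 68.3-fold higher at 4 h. Chst15, a sulfotransferase of proteoglycans, read 157, 216 and 433 against 403, 7019 and 11451, and its other probe set gave 0.46 (log2) in knockout. Nts and Chst15 were named after their values were seen, as were Adh7, an alcohol dehydrogenase (40, 48 and 112 against 49, 190 and 844), and Cited4, a transcriptional coactivator (37, 46 and 95 against 110, 895 and 1275).

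Another set of rises ended a dip. Tmem267, an uncharacterised membrane protein, went 316, 151 and 388 in knockout and 729, 304 and 1618 in wild type, and its wild type step (5.32-fold) exceeded that in knockout (2.57-fold). Lyst, a regulator of lysosome traffic, read 240, 103 and 250 in knockout and 241, 133 and 130 in wild type. Cdyl2, a chromodomain protein, had 161, 99 and 247 against 157, 90 and 97, and another probe set over the floor gave 0.52 (log2) in knockout. Ptprv, a receptor-like tyrosine phosphatase gene, showed 403, 111 and 277 against 212, 130 and 117. For these last 3 genes both genotypes were lower at 2.5 h than at 0 h, and at 4 h the knockout array was at least 2-fold higher again while wild type stayed near its 2.5 h value. Cracd, a regulator of actin capping, rose in knockout without such a dip, at 87, 219 and 674 against 90, 87 and 152. It was 3.08-fold higher by its main probe set but at -0.36 (log2) by another over the floor. For genes with 1 array under the floor, with or without a dip, the intensities at 2.5 h and 4 h follow. They were 27 and 75 for Arfgef3, 34 and 89 for Tmprss13, a membrane protease, 51 and 126 for Tlcd4, and 63 and 153 for Rrad, a small GTPase.

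**Figure D2:**
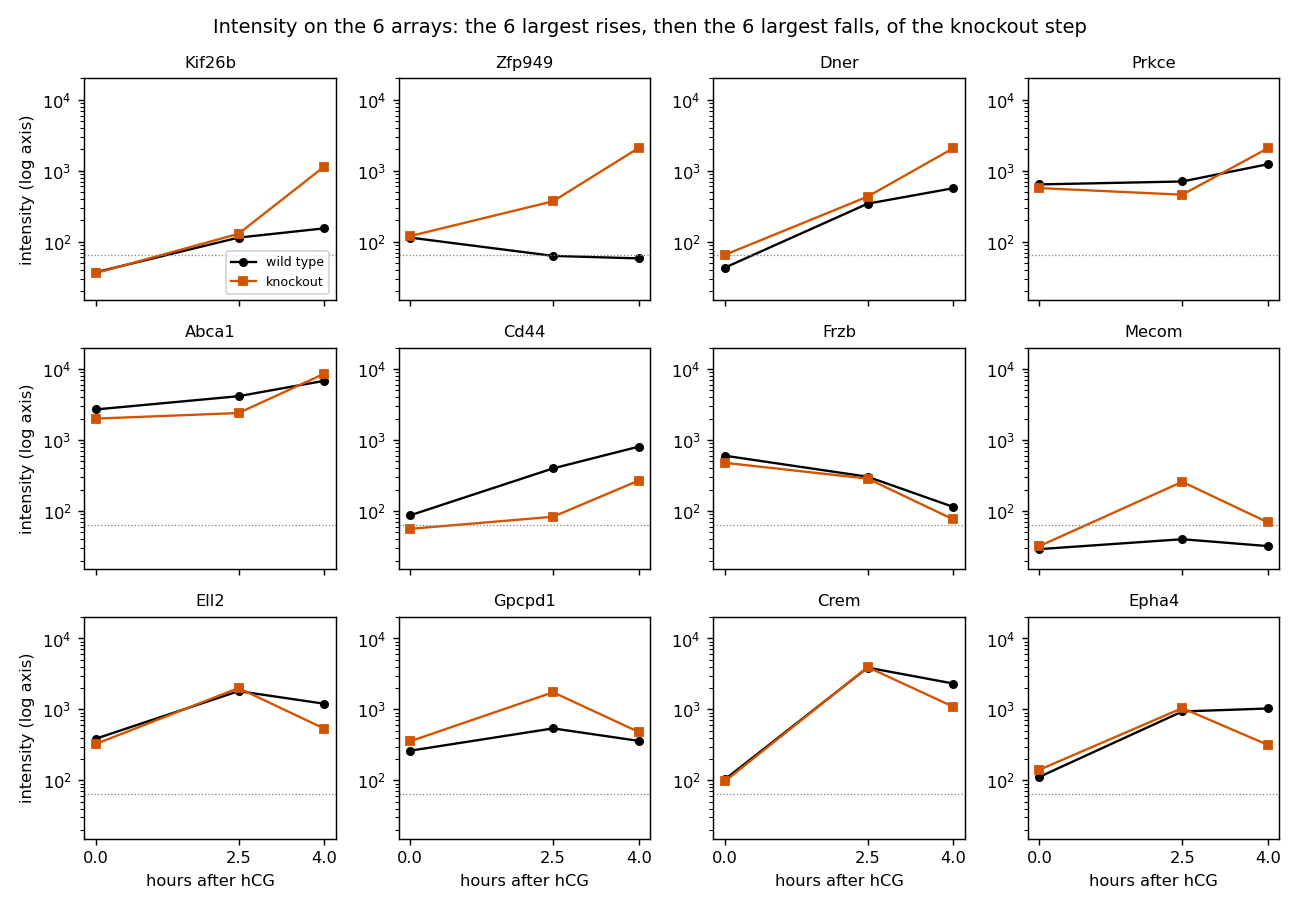
Intensity (log axis) at 0 h, 2.5 h and 4 h after hCG in wild type (black circles) and knockout (orange squares), 1 array per point, for the 6 largest rises and the 6 largest falls of the knockout step among genes with both knockout arrays over the floor (dotted line, 64). Kif26b rises to 1143 in knockout against 154 in wild type, and Ell2, Gpcpd1, Crem and Epha4 peak at 2.5 h in knockout.

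Some higher genes that were picked out after their values were seen encode matrix and secreted proteins. Col4a1 and Col4a2, the paired chains of basement membrane collagen, stood at 1469, 1569 and 3658 and at 572, 676 and 1373 in knockout. Their steps were 2.33-fold and 2.03-fold, against 1.14-fold and 1.02-fold in wild type, where the arrays at 4 h read 3692 and 1549. At 4 h the knockout thus came level with wild type after lying below it at 0 h and 2.5 h. A further probe set of Col4a1 gave 0.58 (log2). These genes start close to each other on opposite strands, and their promoter stretches overlap. The overlap is shown because they moved by like amounts. The RefSeq stretch (GRCm38.p6) from 250 bases before to 50 bases after the start of Col4a2 lies at chr8:11312555-11312854 on the plus strand, and capitals mark the 78 bases that it shares with the stretch of Col4a1 on the minus strand.
Col4a2: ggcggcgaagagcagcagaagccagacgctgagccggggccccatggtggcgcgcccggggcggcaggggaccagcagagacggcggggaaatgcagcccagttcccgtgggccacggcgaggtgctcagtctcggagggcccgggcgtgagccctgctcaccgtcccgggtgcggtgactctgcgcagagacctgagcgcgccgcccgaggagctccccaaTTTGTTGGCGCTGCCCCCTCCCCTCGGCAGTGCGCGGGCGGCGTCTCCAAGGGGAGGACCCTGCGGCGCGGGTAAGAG
Timp3, an inhibitor of matrix proteases, read 237, 502 and 1048 in knockout, a 2.09-fold step, and 389, 684 and 595 in wild type, with 1.03 and 1.15 (log2) by further knockout probe sets. Bmper, a BMP-binding protein, was at 224, 1614 and 3903 against 902, 2952 and 6765, and Pcsk5, a proprotein convertase, at 1420, 3136 and 6816 against 1483, 3991 and 9370. The last pair rose by like amounts in both genotypes, with 2.42-fold and 2.17-fold in knockout and 2.29-fold and 2.35-fold in wild type. Of the further Pcsk5 probe sets over the floor, one read 1130 and 3125 in knockout (1.47, log2) and the other went the opposite way (152 and 144).

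The falls held several genes that stood highest at 2.5 h. Crem, which encodes activators and repressors of cAMP-responsive genes, read 97, 3940 and 1088 in knockout and 103, 3886 and 2316 in wild type. Up to 2.5 h the arrays of the genotypes stood close, and at 4 h knockout was 3.62-fold lower and wild type 1.68-fold. Another Crem probe set over the floor gave -1.28 (log2) in knockout. Ell2, an elongation factor of RNA polymerase II, had the same course, with 325, 2003 and 536 against 386, 1810 and 1203. Its step down was 3.74-fold in knockout (-1.90, log2) and -0.59 (log2) in wild type. Epha4, a receptor of ephrins, read 141, 1044 and 316 in knockout and 112, 936 and 1031 in wild type, so only the knockout array was lower at 4 h. All of its 3 further probe sets over the floor lay between -1.86 and -1.07 (log2). Gpcpd1, a phosphodiesterase of membrane lipid breakdown, was at 356, 1744 and 480 against 262, 540 and 360, and Ttc19, a mitochondrial assembly protein, at 428, 2059 and 644 against 582, 794 and 530. For both, the peak at 2.5 h in knockout was above that in wild type, and the step down was 3.63-fold and 3.20-fold. Further Ttc19 probe sets gave -0.98 and -0.76 (log2) in knockout. Mecom, a transcription factor, read 32, 258 and 69 in knockout and stayed at 29, 40 and 32, under the floor, in wild type. Cdk6, a kinase of the cell cycle, had 1016, 1891 and 728 against 1025, 802 and 432, and Serpina3a, a serpin, 44, 209 and 65 against 95, 123 and 71.

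Another run of falls went on from a decline that had begun by 2.5 h and was shared with wild type. Frzb, a secreted inhibitor of Wnt signals, read 478, 286 and 76 in knockout and 602, 304 and 114 in wild type, a step of 3.76-fold against 2.67-fold. Ccbe1, a secreted factor of lymphatic growth, was at 1969, 1314 and 477 against 2705, 1274 and 470. Knockout was below wild type at 0 h and close to it at 2.5 h and 4 h, with steps of 2.75-fold and 2.71-fold. Adhfe1, a mitochondrial oxidoreductase, had 443, 228 and 75 against 484, 274 and 129, and Ntng1, a netrin-like adhesion protein, 719, 453 and 152 against 479, 309 and 174. Further probe sets over the floor gave -0.815 (log2) for Adhfe1 and -0.26 for Ntng1 in knockout. Krt20, a keratin, read 333, 187 and 74 against 284, 147 and 77. Olfm1, a secreted glycoprotein, stood at 610, 580 and 222 against 852, 507 and 218, and Eri3, an exonuclease, at 1098, 1169 and 450 against 1082, 844 and 345. In knockout the last pair was level up to 2.5 h, and another Olfm1 probe set over the floor gave -0.51 (log2). For falls that ended under the floor, the intensities at 2.5 h and 4 h were 97 and 31 for Nckap5, 160 and 57 for Septin4, 148 and 53 for Clec1a, a lectin-like receptor, 130 and 47 for Marchf1, a ubiquitin ligase, and 94 and 40 for 4933431K23Rik.

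Because Crem binds the cAMP response element (CRE), the promoters of the moved genes were searched for its letters, TGACGTCA, on both strands. RefSeq stretches of 250 bases before to 50 bases after the start (GRCm38.p6) were found for 92 of the 112 genes, and a gene was counted where any of its listed promoters held the motif. No stretch was found for Crem, Per2 or Gpcpd1, so these were not searched. The full CRE was present in 5 of 48 lower genes (10.42%), in 3 of 44 higher genes (6.82%) and in 549 of 27025 genes in the table (2.03%). Here and for the motifs below, the genes in the table were not limited to those on the array or over the floor. The moved genes were so limited, and a share among all genes over the floor was not taken. The higher genes with the CRE were Mapk10, Tenm3 and Creb5. The lower ones were Ell2, Ttc19, Plk2, Maff and Paqr3. Plk2, a stress-induced kinase, read 118, 838 and 344 in knockout and 199, 2069 and 866 in wild type. Maff, a small basic leucine zipper factor, was at 57, 177 and 86 against 84, 370 and 208, and Paqr3, a Golgi membrane protein, at 43, 108 and 52 against 61, 49 and 39. The promoters of Ell2 (chr13:75707234-75707533, plus strand), Ttc19 (chr11:62281223-62281522, plus), Plk2 (chr13:110394794-110395093, plus) and Maff (chr15:79347270-79347569, plus, the promoter of 3 listed that holds the motif) are printed to show where the element lies, with the CRE in capitals. It begins 198, 51, 62 and 29 bases before the start, in that order.
Ell2: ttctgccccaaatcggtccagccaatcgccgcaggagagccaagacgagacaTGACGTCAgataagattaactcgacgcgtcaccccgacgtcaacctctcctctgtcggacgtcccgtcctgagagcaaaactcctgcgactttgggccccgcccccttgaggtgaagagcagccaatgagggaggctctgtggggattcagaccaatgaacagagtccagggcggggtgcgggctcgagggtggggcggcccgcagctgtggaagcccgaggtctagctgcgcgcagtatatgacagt
Ttc19: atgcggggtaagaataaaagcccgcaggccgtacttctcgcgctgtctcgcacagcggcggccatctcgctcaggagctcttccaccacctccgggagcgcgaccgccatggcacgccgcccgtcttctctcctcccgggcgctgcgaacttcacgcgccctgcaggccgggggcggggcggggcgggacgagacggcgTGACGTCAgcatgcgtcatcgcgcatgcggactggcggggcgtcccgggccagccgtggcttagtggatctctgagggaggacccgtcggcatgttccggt
Plk2: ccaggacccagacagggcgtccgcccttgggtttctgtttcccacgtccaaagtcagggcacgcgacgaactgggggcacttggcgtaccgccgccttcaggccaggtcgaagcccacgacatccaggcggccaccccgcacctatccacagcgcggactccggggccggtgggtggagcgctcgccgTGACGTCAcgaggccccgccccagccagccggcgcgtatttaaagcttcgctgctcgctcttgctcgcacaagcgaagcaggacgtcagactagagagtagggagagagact
Maff: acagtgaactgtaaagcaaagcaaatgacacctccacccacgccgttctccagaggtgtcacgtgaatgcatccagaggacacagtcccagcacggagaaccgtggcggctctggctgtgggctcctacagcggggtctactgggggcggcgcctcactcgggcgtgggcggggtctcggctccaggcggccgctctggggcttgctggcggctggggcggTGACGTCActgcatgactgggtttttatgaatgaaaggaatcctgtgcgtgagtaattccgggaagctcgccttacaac
The CRE core TGACG, which the full site contains, was in 31.25% of lower, 27.27% of higher and 23.05% of all genes. The E-box CACGTG was in 12.5%, 13.64% and 8.09% of lower, higher and all genes, the AP-1 site TGANTCA in 6.25%, 13.64% and 8.97%, and the hypoxia core ACGTG, which overlaps the E-box, in 31.25%, 27.27% and 21.78%. The sterol element core TCACNCCAC was in 0 of the 48 and 0 of the 44 and 1.44% of all genes, and the NR4A site AAAGGTCA in 2.08%, 0 of 44 and 1.7%. A match describes these letters only.

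Gene lists of the ovulatory response had at most 2 members past 2-fold in the knockout step. Over all genes 0.462% were higher and 0.533% lower, and in lists this short 1 gene is already a larger share than either. Of 23 cAMP and CREB targets over the floor, 0 were higher and 2 lower, Crem and the clock gene Per2 (2.45-fold lower), with a median of -0.04 (log2). Per2 read 66, 595 and 243 in knockout and 75, 89 and 66 in wild type, so it peaked at 2.5 h in knockout and stayed near its start in wild type. Among 26 immediate early genes, 1 was at least 2-fold lower (Maff, 2.06-fold) and 0 higher, and the median was 0.04. In the wild type step, 5 of these 26 were at least 2-fold lower and the median was -0.51. Picked from that list after its values were seen, Nr4a1, an orphan nuclear receptor, stayed at 7241 and 7336 in knockout where wild type read 6344 and 2192. Likewise Jun, an AP-1 subunit, was at 2363 and 3150 in knockout against 899 and 517, and Klf4, a zinc finger factor, at 1017 and 1468 against 1805 and 1251. In the other direction Nr4a2 read 308 and 172 in knockout against 482 and 133, and Btg2, an antiproliferative gene, 1344 and 787 against 1854 and 813.

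Among 13 genes of ERK pathway feedback, 0 passed 2-fold in knockout and the median was -0.01, beside 0.48 in wild type. The largest difference was that of Dusp6, the ERK phosphatase, at 26, 186 and 99 in knockout and 94, 404 and 872 in wild type. EGF-like ligands (5 over the floor) had 0 past 2-fold and a median of 0.19, with Tgfa highest at 0.65. Ereg, named after its values were seen, stayed at 7644 and 7360. In the list of cumulus expansion and matrix, 1 of 12 was at least 2-fold higher, which was Cd44, and 0 were at least 2-fold lower. By any amount 7 were higher and 5 lower, in knockout and in wild type alike, with medians of 0.20 and 0.42. Ovulation regulators had 0 of 13 past 2-fold, and Pgr, the progesterone receptor, came closest at 0.93 (log2), with 25, 693 and 1322 in knockout and 25, 4476 and 7661 in wild type. The C/EBP family had 0 of 5 past 2-fold, with Cebpb at 0.37.

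Sterol genes were mostly on the higher side in knockout. Of 20 genes of cholesterol synthesis and uptake, 18 were higher at 4 h than at 2.5 h in knockout and 2 lower, where 56.0% and 43.1% of the genes over the floor in both genotypes were. Of the higher, 1 was so by at least 2-fold, with a median of 0.27 beside 0.04 over all genes. In wild type 7 were higher and 13 lower (median -0.10). Other lists also lay to the higher side in knockout, such as angiogenic factors (13 of 15 higher) and surface epithelium markers (9 of 10). Medians close to that of the sterol genes were those of smooth muscle markers (0.27) and ovulation regulators (0.26). Mvd, which makes isopentenyl diphosphate, read 85, 134 and 311 in knockout, a 2.32-fold step, and 188, 196 and 167 in wild type, and a further probe set gave 0.91 (log2). Below 2-fold, and chosen after their values were seen, were Sqle, the squalene epoxidase, at 1785 and 3083, Msmo1, a sterol methyl oxidase, at 1653 and 2853, and Fdft1, the squalene synthase, at 2497 and 4089. Of 16 steroidogenesis genes, 1 was at least 2-fold higher, Sult1e1, and 0 lower (median 0.03). By any amount 10 of the 16 were higher and 6 lower. Cyp11a1, which starts steroid synthesis from cholesterol, stood at 9524 and 12909. Scarb1, the receptor that takes up cholesterol from lipoproteins, stood at 10994 and 16753. Akr1c18 of the same list went the other way, at 151 and 83 in knockout against 143 and 256 in wild type. Star, which carries cholesterol into mitochondria, stayed at 635 and 619 against 14678 and 16259 in wild type. Cyp11a1, Scarb1, Akr1c18 and Star were named after their values were seen. Luteal genes had 1 of 19 at least 2-fold lower and 0 higher (median 0.21). Ptgfr, whose product binds prostaglandin F2-alpha, was the lower one, at 40, 5126 and 2394 in knockout and 276, 1872 and 675 in wild type. Its 3 further probe sets over the floor gave -1.20, -1.14 and -0.27 (log2).

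**Figure D3:**
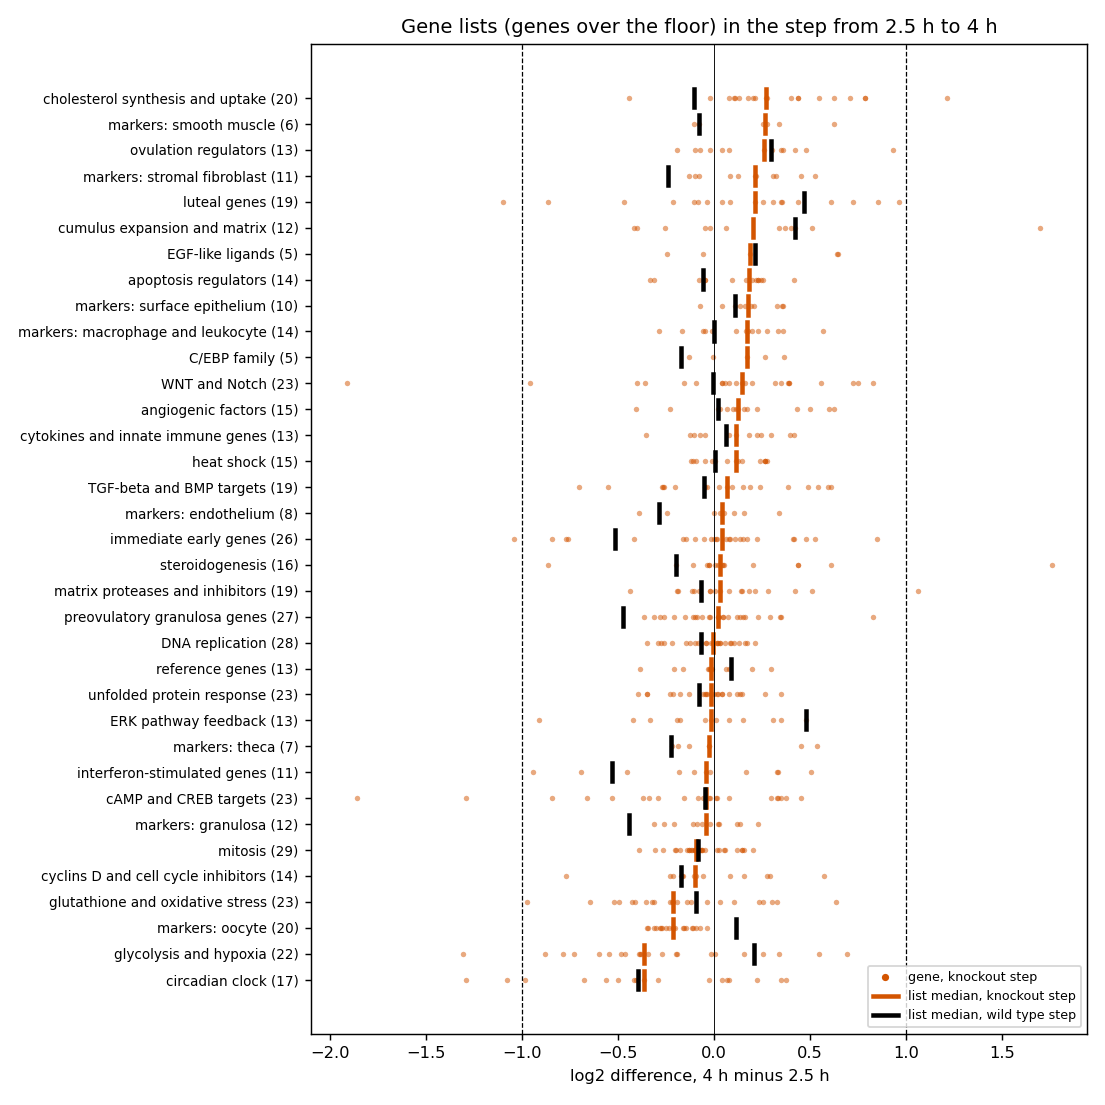
Log2 difference (4 h minus 2.5 h) in knockout for each gene over the floor (orange points) of lists with at least 5 such genes, with the list's median in knockout (orange bar) and in wild type (black bar); the number over the floor follows each name and dashed lines mark 2-fold. Cholesterol synthesis has the highest knockout median (0.274), close to those of smooth muscle markers (0.267) and ovulation regulators (0.26). Glycolysis and hypoxia (-0.36) and the circadian clock (-0.36) have the lowest.

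Glycolysis and hypoxia genes were mostly on the lower side in knockout. Of 22, 16 were lower at 4 h and 6 higher, where 43.1% and 56.0% of the genes over the floor in both genotypes were. Their median was -0.36, and 1 was at least 2-fold lower. The summed intensity of the list was 40748, 59844 and 47420 at 0 h, 2.5 h and 4 h in knockout. In wild type it was 49264, 42979 and 43474. In wild type 9 were lower and 13 higher, with a median of 0.21. Bnip3, a mitophagy receptor, was the one past 2-fold, at 3298, 3494 and 1412 in knockout and 3597, 2293 and 757 in wild type. Its step was 2.48-fold in knockout and 3.03-fold in wild type. Pdk1, the kinase that shuts pyruvate dehydrogenase, read 390 and 212 in knockout and 376 and 204 in wild type. Pkm, the pyruvate kinase, was at 3686, 5336 and 3532 in knockout and 4254, 3508 and 3541 in wild type. Ldha, lactate dehydrogenase, read 6327, 10985 and 8395 against 8476, 7349 and 7294. These 3, like Hk2 (726 and 527 against 1116 and 1642), were named after their values were seen and lay below 2-fold in knockout. Slc2a1, the glucose transporter, also named after its values were seen, was on the higher side in both, at 318 and 402 against 1402 and 2586.

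Among 17 genes of the circadian clock, 2 passed 2-fold downward in knockout and 0 upward, with a median of -0.36 there and -0.39 in wild type. Besides Per2, the lower gene was Nr1d2, a repressor of the clock, at 2344, 2222 and 1054 in knockout, a 2.11-fold step, and 1777, 1386 and 537 in wild type. Cry2, another repressor, named after its values were seen, read 2220 and 1123, just under 2-fold. Glutathione and oxidative stress genes had 0 of 23 past 2-fold and 16 of 23 lower (median -0.21), with the glutathione transferase Gstm7 at -0.97. Of the genes over the floor in both genotypes, 43.1% were lower. In the WNT and Notch list 17 of 23 were higher and 6 lower, beside the same 56.0% and 43.1% (median 0.15), 1 of the lower by 2-fold, which was Frzb. Matrix proteases and inhibitors had 1 of 19 at least 2-fold higher, Timp3, and 0 lower (median 0.03).

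In knockout, 0 of 27 preovulatory granulosa genes passed 2-fold (median 0.02), whereas 6 were at least 2-fold lower and 1 higher in wild type (median -0.47). Wnt4, a Wnt ligand, moved most in knockout at 0.83 (log2), and Fshr, the FSH receptor, lay at -0.31. In each further list 0 genes passed 2-fold in knockout. The gene that moved most was Ccnb2 (-0.39) of 29 for mitosis, Pola1 (-0.35) of 28 for DNA replication, Btg2 (-0.77) of 14 for D cyclins and cell cycle inhibitors and Bcl2l2 (0.42) of 14 for apoptosis regulators. It was Tnfrsf12a (0.42) of 13 for cytokines and innate immune genes, Vegfc (0.62) of 15 for angiogenic factors, Sdf2l1 (-0.40) of 23 for the unfolded protein response and Hsp90aa1 (0.28) of 15 for heat shock. For targets of TGF-beta and BMP it was Id3 (-0.70) of 19, for interferon-stimulated genes Irf7 (-0.94) of 11, and for reference genes Pgk1 (-0.39) of 13. Centring on the controls raises every knockout difference, so a list median between the control median (-0.09) and 0 turns positive or reaches 0 under it.

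Knockout and wild type steps come from 4 separate arrays, so they can be set side by side. Of the 52 higher genes in knockout, 48 were over the floor in wild type, and 36 of those (75%) were higher there too, where 48.8% of the 11061 genes over both floors were. At least 2-fold higher in wild type were 13, which is 25% of the 52 and 7.07% of the 184. Of the 60 lower genes, 55 were over the floor in wild type and 51 (92.7%) were lower there, against 50.4% of all genes. At least 2-fold lower in both were 20, which is 33.3% of the 60 and 9.13% of the 219. In the opposite direction, of the wild type genes over the knockout floor, 97 of 121 higher genes (80.2%) and 155 of 204 lower genes (76%) went the same way in knockout, where 56.0% of the 11061 were higher and 43.1% lower, with median knockout differences of 0.35 and -0.28. Selection in 1 genotype makes the step in the other look smaller. Across the 11061 genes, which share arrays and are not independent replicates, the steps had a Pearson r of 0.339 and a Spearman rho of 0.28.

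**Figure D4:**
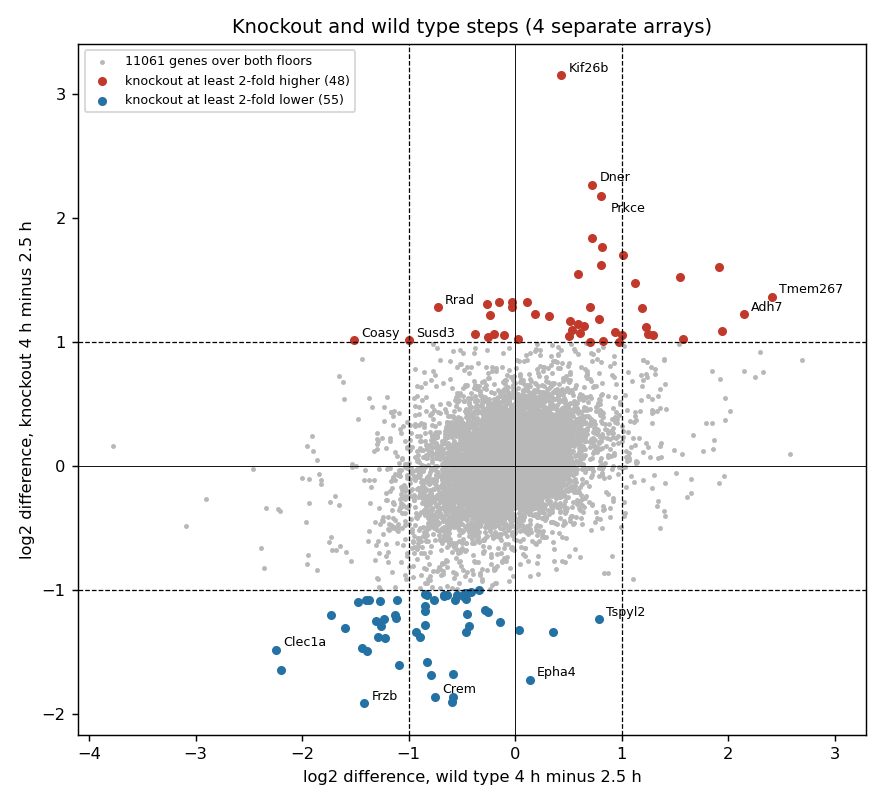
Log2 difference from 2.5 h to 4 h in wild type (x axis) and knockout (y axis) for the 11061 genes over the floor in both, with the 48 and 55 of them past 2-fold in knockout in red and blue and dashed lines at 2-fold. Most blue points lie left of 0, and Kif26b, Dner and Prkce stand above the wild type step.

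Shared lower genes, chosen after their values were seen, included Nrep, at 1777, 1143 and 497 in knockout and 2662, 1527 and 460 in wild type, and Rgs13, a regulator of G protein signals, at 2724, 1102 and 481 against 1633, 707 and 323. Ccrl2, a chemokine-binding receptor, read 87, 1656 and 779 in knockout and 160, 497 and 206 in wild type, with steps of 2.13-fold and 2.41-fold from different heights. Egfr, the receptor of the EGF-like ligands, was at 641, 965 and 457 against 632, 460 and 272, so its knockout peak at 2.5 h was absent in wild type. Another Egfr probe set gave -1.35 (log2) in knockout and a further one -0.24, which in wild type read 217 and 246. Ghr, the growth hormone receptor, had 5103, 2763 and 1362 against 5487, 2475 and 1785, with -0.91 and -0.36 (log2) by further knockout probe sets. By their main probe sets, Egfr and Ghr were lower in wild type by 1.69-fold and 1.39-fold. They are thus not among the genes at least 2-fold lower in both. The shared higher genes included Prkca, the alpha isoform of protein kinase C, at 212, 208 and 422 against 258, 384 and 1144. Another Prkca probe set over the floor gave only 0.31 (log2) in knockout.

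In 1 gene over both floors the steps were at least 2-fold in opposite directions. Coasy, which makes coenzyme A, read 1334, 1743 and 3520 in knockout and 1281, 928 and 326 in wild type. Its further probe set gave 1.02 (log2) in knockout, and the arrays of the genotypes, close at 0 h, were 10.8-fold apart at 4 h. Susd3, a small membrane protein, stood at 806, 720 and 1452 against 752, 600 and 301, with 0.21 (log2) by another knockout probe set. Neither difference between genotypes could be tested with 1 array each.

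How far a step held across probe sets was checked within the same arrays. Of the 112 genes, 45 had another probe set over the floor, and in 42 of them all such probe sets went the same way as the representing one. Over 65 further probe sets, 62 had the same direction and 29 were at least 2-fold the same way. For 10 of 24 higher and 12 of 21 lower genes, at least 1 further probe set passed 2-fold. A single probe set stood on the array for 16 of the higher and 23 of the lower genes. Among the genes with no other probe set over the floor are Kif26b, Corin and Bmper on the higher side and Ell2, Per2 and Bnip3 on the lower side.

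**Figure D5:**
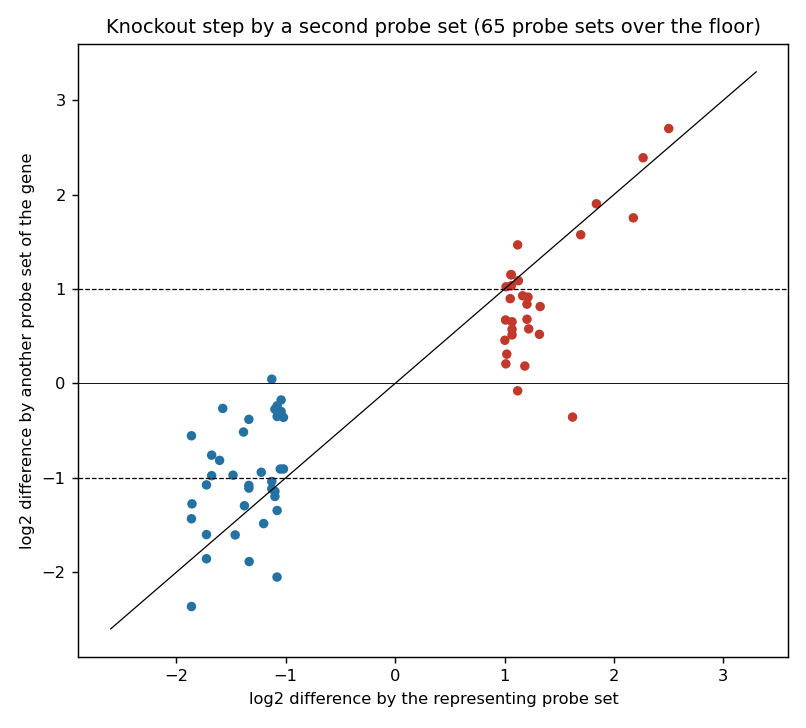
Knockout step (log2) by the representing probe set (x axis) and by each of the 65 further probe sets over the floor of the same genes (y axis), red for higher and blue for lower genes, with the line of equality and dashed 2-fold lines. Of the 65 points, 62 lie on the side of their gene's main value, and 29 lie past 2-fold.

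Values near the limits show what the rule keeps. Just inside the floor were Creb5, a CREB-like factor (36 and 72), and Arfgef3 (27 and 75), and just outside it Tmem71 (25 and 60) and Brinp3 (16 and 59). Just inside 2-fold were Mtnr1a, a melatonin receptor (264 and 132), and Chst15 (216 and 433), and just outside it Slc7a2, an arginine transporter (127 and 253), and Fggy (235 and 118). Of the 112 genes, 10 had a brighter array under 100. Among 2745 probe sets over the floor that name no single gene, 14 were at least 2-fold higher and 21 lower.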

How the data were processed

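Total RNA of granulosa cells was hybridized to 6 Affymetrix arrays, 1 per genotype and time. The authors made the deposited intensities by RMA with affy, per the submitters' processing notes, without a stated version. These intensities are linear, not log2 as first assumed, and rounded to whole numbers (9 to 59425, array medians 54 to 55). Rounding makes dim values coarse, and the quantile step hides a change in total RNA.

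From these, log2 differences were computed (Python 3.11.15, pandas 2.3.3). Of 45101 probe sets, 34945 named 1 gene in the platform annotation, and 34741 of these matched GRCm38.p6 by gene ID. A gene was represented by its probe set of highest average log2 intensity across all 6 arrays. A gene counted with its brighter array at 64 or more and a difference of at least 2-fold. There are no replicates, so no test across all genes was run, precision is limited by the number of arrays, and no p-value is given. The rule was tested on simulated data. Alternatives were other floors, folds, pseudocounts, probe set means, and scalings (cyclic loess in limma 3.58.1, R 4.3.3).

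Named were the 15 largest rises and falls with both arrays over the floor, 5 each with 1 under it, listed genes past 2-fold, and otherwise a list's most moved gene. The gene lists and the comparison were chosen with earlier results of these data known.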

Additional observations from a re-analysis of the deposited data

Results flagged for a closer look

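For 4 of the 112 genes the wild type step went at least 1.5-fold the other way, with the brighter wild type array over the floor. The difference between the genotypes was not tested, since each step rests on 1 array a side. Coasy was at 1.01 (log2) in knockout and -1.51 in wild type, a difference of 2.52. Susd3 was at 1.01 and -1.0, a difference of 2.01. Rrad, a small GTPase, was at 1.28 and -0.73, a difference of 2.01, with intensities of 63 and 153 in knockout and 409 and 247 in wild type, so the genotypes came closer. Tspyl2, a nucleosome assembly protein, was at -1.24 and 0.79, a difference of -2.02, with 464 and 197 in knockout and 300 and 517 in wild type.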

How the results depend on the processing

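No paired analysis was possible because each group has 1 array, and leaving out a replicate was not possible for the same reason. The knockout counts of 52 higher and 60 lower genes, and those of 184 and 219 in wild type, stayed within 1.5 times under a higher floor, no floor, both arrays at 64 or more, cyclic loess, centring on the gene median or on the controls (added after the data were seen) and 16 added to each intensity. With the mean of all probe sets of a gene, the knockout counts were 25 and 34 and the wild type count of lower genes 145. With 64 added they were 17 and 28 in knockout and 102 and 97 in wild type. A 1.5-fold rule gave 328 and 288 in knockout and 518 and 904 in wild type, and a 3-fold rule 9 and 10, and 54 and 43. The median of apoptosis regulators changed sign with the mean of all probe sets, to -0.0329 from 0.18, over 8 genes in place of 14; the cause was not tested. Of the 47 genes named by rule that passed 2-fold, all stayed past it with cyclic loess, gene centring and no floor, 45 with 16 added and with control centring, 30 with 64 added and 24 of 40 over the floor with probe set means. Adding 64 shrinks every dim difference by construction.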

Other observations

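Some genes with large differences between 2.5 h and 4 h in wild type differed less in knockout. They were picked for the difference, so they are given as values only. Inhbb, a subunit of inhibin and activin, read 23283 and 22865 in knockout and 13813 and 2518 in wild type. Smim10l2a read 302 and 337 against 396 and 29, and Jakmip3 535 and 446 against 559 and 75. On the other side, Abi3bp, a matrix protein, was at 69 and 74 against 132 and 790, and Rnf125, a ubiquitin ligase, at 98 and 89 against 648 and 2444. Cxcr4, a chemokine receptor, had a step of 0.86 (log2) in knockout, from 111 to 201, where the wild type arrays read 291 and 1883.

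Pcx, the pyruvate carboxylase that feeds the citric acid cycle, went opposite ways below 2-fold, with 475, 1114 and 1768 in knockout (0.67, log2, from 2.5 h to 4 h) and 624, 458 and 286 in wild type (-0.68). Elovl6, a fatty acid elongase, read 2935, 4921 and 6178 against 4607, 3480 and 1570. Neither difference was tested.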
